A study of Mus musculus with 82 samples.

Results

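The external ear of the mouse contains skeletal muscle as well as skin, cartilage, nerve and fat, and RNA of a whole ear punch includes muscle transcripts. A set of 40 skeletal muscle genes was followed here, taken by gene symbol from 2 deposited gene count tables that each list 56941 genes. All 40 were found in both tables, all 40 passed the filter on low counts in both experiments, and none was at 0 in any group. The set holds 8 thick filament genes, 9 thin filament genes, 11 genes of the Z-disc, M-band, titin and desmin, 6 calcium-handling genes and 6 genes of energy supply and oxygen storage.

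The study tested IDOR-1117-2520, an orally available small-molecule inhibitor of the chemokine receptor CCR6, given in drinking water during skin inflammation caused by Aldara cream, which holds 5% imiquimod, an agonist of the RNA sensor TLR7. Each library was made from right ear tissue of a female mouse (strain label C57BL/6J Rj, age not stated), imiquimod was applied daily, and no group is labelled with a genetic change. In the time-course experiment (52 libraries, 9 groups), sham ears (treatment label Vehicle), ears given imiquimod, and ears given imiquimod while the mice drank the drug were compared at 2, 5 and 8 days of treatment, with 6 libraries a group and 4 in the day 5 sham group. In the start-day experiment (30 libraries, 5 groups of 6), sham ears and imiquimod ears, both labelled day 8, were compared with imiquimod ears of mice whose drug began on day 0, 3 or 5 (labelled 8, 5 and 3 days of treatment). The protocol in the labels has the drug begin ahead of the first imiquimod application, and the labels do not give a collection day for the drug groups, so whether the later starts were collected on the same day as the imiquimod ears is not stated. Whether every library came from its own mouse is not stated in the labels, and p-values here reflect library-to-library spread, which may be technical; a group with the drug alone is not analysed here. The punch is whole ear, so fewer muscle cells and less RNA per muscle cell cannot be told apart.

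Skeletal muscle fibres contract when calcium released from the sarcoplasmic reticulum through the ryanodine receptor (Ryr1) binds troponin on the thin filament and lets myosin heads of the thick filament pull. Fast fibres carry fast myosin heavy chains such as Myh4 (type IIB), the fast troponin T Tnnt3 and the calcium buffer parvalbumin (Pvalb). Slow fibres carry the slow myosin Myh7 and the slow troponin T Tnnt1. Much of this programme is driven by MyoD-family proteins, which bind E-boxes, and by MEF2, SRF (which binds CArG boxes) and TEAD proteins (which bind MCAT sequences).

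Promoter windows of 6 members are shown because these members mark the fast fibres (Myh4, Pvalb), the slow fibres (Myh7, Tnnt1), the most abundant member per length (Acta1, skeletal alpha-actin) and the member that changed least under imiquimod in the start-day experiment (Tpm2, beta-tropomyosin). Each run is the 250 bases before the 5′-most transcript start in RefSeq (GRCm38.p6; the count tables were made on GRCm39 and give no coordinates), read 5′ to 3′ on the gene's own strand, and capitals mark matches on either strand to the E-box sequence CAGCTG, the MCAT sequence CATTCC, the TATA box sequence TATAAA, or the MEF2 or CArG consensus. The windows are Myh4 at chr11:67237562-67237811 (plus strand), Pvalb at chr15:78206401-78206650, Myh7 at chr14:54994627-54994876, Tnnt1 at chr7:4515976-4516225, Acta1 at chr8:123894776-123895025 and Tpm2 at chr4:43523555-43523804 (all 5 on the minus strand).
Myh4: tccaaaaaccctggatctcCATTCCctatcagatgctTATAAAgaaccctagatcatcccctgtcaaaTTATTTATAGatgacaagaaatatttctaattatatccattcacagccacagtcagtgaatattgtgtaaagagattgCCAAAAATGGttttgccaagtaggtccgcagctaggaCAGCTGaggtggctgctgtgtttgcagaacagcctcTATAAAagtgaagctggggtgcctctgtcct
Pvalb: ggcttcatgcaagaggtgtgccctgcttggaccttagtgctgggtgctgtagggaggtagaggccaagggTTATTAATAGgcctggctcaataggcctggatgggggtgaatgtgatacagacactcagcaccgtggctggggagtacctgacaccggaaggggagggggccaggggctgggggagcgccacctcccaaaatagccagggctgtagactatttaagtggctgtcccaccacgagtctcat
Myh7: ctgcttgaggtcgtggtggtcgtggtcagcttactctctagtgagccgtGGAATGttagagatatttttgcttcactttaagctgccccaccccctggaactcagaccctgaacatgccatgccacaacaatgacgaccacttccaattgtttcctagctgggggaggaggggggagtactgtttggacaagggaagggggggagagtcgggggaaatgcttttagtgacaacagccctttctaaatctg
Tnnt1: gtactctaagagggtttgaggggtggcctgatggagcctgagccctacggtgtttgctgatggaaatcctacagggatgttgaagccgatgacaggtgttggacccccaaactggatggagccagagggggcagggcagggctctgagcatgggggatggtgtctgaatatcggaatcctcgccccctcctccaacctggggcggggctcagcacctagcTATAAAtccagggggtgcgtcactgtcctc
Acta1: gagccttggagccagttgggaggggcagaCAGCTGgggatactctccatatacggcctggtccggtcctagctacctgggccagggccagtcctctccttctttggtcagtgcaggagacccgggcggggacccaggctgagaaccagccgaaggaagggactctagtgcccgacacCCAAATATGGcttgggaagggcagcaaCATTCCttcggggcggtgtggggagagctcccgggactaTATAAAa
Tpm2: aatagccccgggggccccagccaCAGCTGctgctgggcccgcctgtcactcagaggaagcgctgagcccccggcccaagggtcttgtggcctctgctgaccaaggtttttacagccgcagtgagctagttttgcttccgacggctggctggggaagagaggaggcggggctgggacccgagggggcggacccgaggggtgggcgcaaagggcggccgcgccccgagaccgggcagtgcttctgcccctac

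The Myh4 window holds matches to all 5 motifs, with a TATAAA that overlaps the MEF2 match. The Pvalb window holds a MEF2 match, Myh7 an MCAT match, Tnnt1 a TATAAA and Tpm2 an E-box, while Acta1 holds an E-box, a CArG box, an MCAT match and a TATAAA. RefSeq windows were matched for 32 of the 40 members (38 windows), and Neb, Tcap, Myom2, Tnnt3, Tnni2, Cacng1, Actn3 and Myoz1 are named only. CAGCTG was in 47.4% of the member windows and in 13% of all 32851 windows of the same length. The MEF2 consensus was in 15.8% against 1.69%, CArG in 13.2% against 1.47%, CATTCC in 23.7% against 12.6% and TATAAA in 13.2% against 12.4%. These matches describe letters in the windows and are not binding sites measured here.

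Time-course libraries held 13.1 M to 35.4 M estimated counts and start-day libraries 24.1 M to 35.5 M, and the closest pair of libraries within a group differed by more than counting noise. Levels are CPM, counts per 1 M counts of a library, scaled by TMM factors, and a gene is called changed where edgeR's quasi-likelihood test gave a Benjamini-Hochberg adjusted p under 0.05 over all genes tested. Within groups of the time course the members varied more than genes in general: their median SD of log2 CPM was 0.263, against 0.196 over all 18780 genes tested, and 38 of 40 lay above that median. In the start-day experiment the same values were 0.147 and 0.153. Several time-course libraries were high or low for most members together: imiquimod library 25 of day 5 was the lowest of its group for 36 of 40 members, drug library 33 of day 5 for 35, and sham library 42 of day 8 was the highest for 36 (libraries are numbered as in their titles). The comparisons at day 5 are given with and without libraries 25 and 33.

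In sham ears of the start-day experiment the 40 members held 1.61% to 1.68% of all counts. Together they came to 14130 to 14630 CPM, with a median of 14400. Per kilobase of exon, Acta1 stood highest in those libraries, with a median of 768 CPM per kb. It was followed by the calcium pump Atp2a1 (555), the fast troponin C Tnnc2 (502) and the fast regulatory light chain Mylpf (473), and the giant protein titin (Ttn) stood lowest at 4.21. The fast troponin T Tnnt3 stood at 321 CPM per kb and the slow Tnnt1 at 53.1.

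Among the adult myosin heavy chains, the order per kilobase in the sham libraries of the start-day experiment was Myh1 (type IIX; median 302, range 280 to 312), Myh4 (185, 173 to 209), Myh2 (type IIA; 35.4, 31.9 to 43.7) and Myh7 (7.63, 6.77 to 8.99), with no overlap between neighbours. Under imiquimod the order was unchanged, with medians of 118, 21.1, 7.17 and 0.956 CPM per kb. Myh1, Myh2 and Myh4 are near-identical copies in a gene cluster, and their estimated counts depend on how shared reads were divided, so their separate values are uncertain. Lists for other muscle types were summed in these libraries as well. The list of 14 smooth muscle genes came to 743 to 843 CPM. A cardiac list of 8 genes came to 17 to 23.2 CPM, which is not read as heart muscle in the ear. The atrial peptide gene Nppa, which is in the cardiac list, had a median of 0 CPM in each of the 14 groups.

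**Figure D1:**
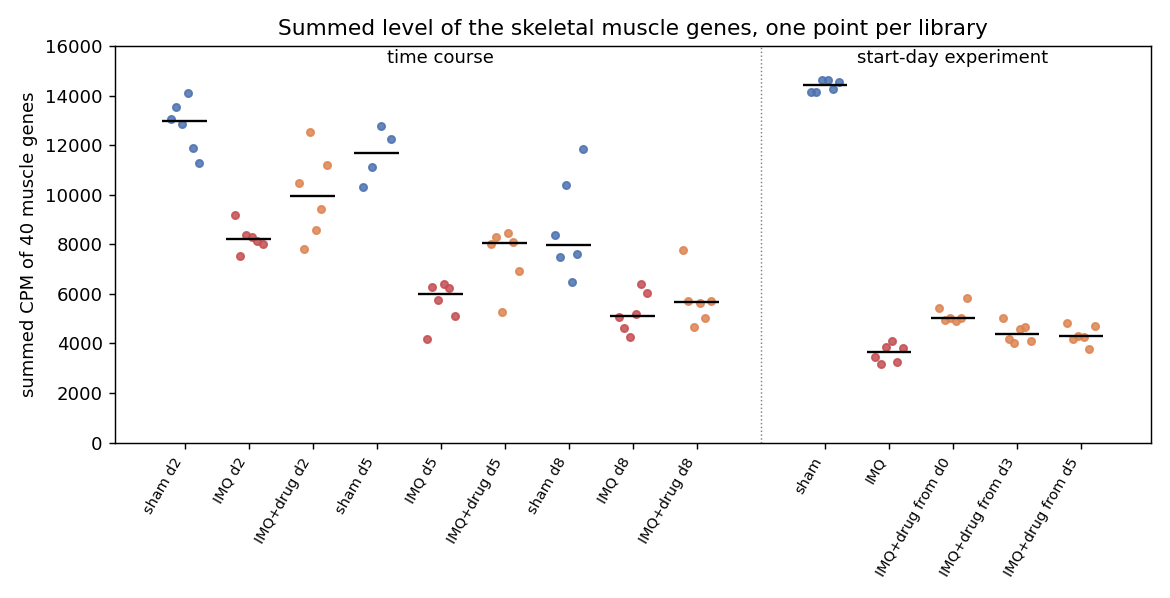
Summed level of the 40 skeletal muscle genes (TMM-scaled CPM) in each library, by group; each point is 1 library, black lines are group medians, and colours mark sham (blue), imiquimod (red) and imiquimod plus drug (orange). Start-day sham libraries sit at 14130 to 14630 CPM and start-day imiquimod libraries at 3179 to 4097 CPM, and sham libraries of day 8 in the time course spread from 6476 to 11860 CPM.

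Under imiquimod in the start-day experiment, all 40 muscle genes fell. The summed level was 3179 to 4097 CPM (median 3642), below each sham library, and the median log2 fold change of the members was -2.12, against -0.02 over all 18434 genes tested. For comparison, 39.9% of all genes tested were called lower, and 31.4% had each imiquimod library below each sham library, as did all 40 members. Calcium-handling members had the lowest median (-2.56), followed by thin filament (-2.24), thick filament (-2.21), Z-disc, M-band, titin and desmin (-2.05) and energy members (-1.98).

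The steepest falls were those of 3 fast-fibre members. Pvalb, the calcium buffer that speeds relaxation of fast fibres, stood at 143, 150 and 168 CPM (lowest, median and highest) in sham ears and at 4.3, 5.34 and 7.77 CPM in imiquimod ears. This was a 27.4-fold fall (log2 fold change -4.78 ± 0.16 SE, edgeR adjusted p = 3.25e-20). Actn3, the alpha-actinin of fast Z-discs, went from a median of 83.7 to 4.25 CPM (-4.28 ± 0.16, adjusted p = 1.1e-19). Mybpc2, the fast myosin-binding protein C, went from 40.4 to 3.27 CPM (-3.72 ± 0.20, adjusted p = 2.21e-16).

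Both fibre types fell. The fast myosin Myh4 stood at 1040, 1110 and 1260 CPM in sham and at 96.1, 127 and 174 CPM in imiquimod ears (-3.10 ± 0.14, adjusted p = 3.36e-17). The slow myosin Myh7 stood at 58.3, 65.7 and 77.5 CPM in sham and at 6.23, 8.24 and 13.8 CPM in imiquimod ears (-2.90 ± 0.26, adjusted p = 9.46e-11). The groups did not overlap for either myosin, and the log2 fold changes of the pair differed by less than the larger standard error. The fast troponin T Tnnt3 went from 482, 508 and 526 CPM to 86.9, 102 and 112 CPM (-2.33 ± 0.07, adjusted p = 3.98e-22). The slow troponin T Tnnt1 went from 105, 117 and 122 CPM to 18.6, 21.4 and 30 CPM (-2.33 ± 0.12, adjusted p = 3.46e-16). Again no sham library overlapped an imiquimod library.

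Members with the smallest falls still separated the groups. Tpm2, the beta-tropomyosin that lies along the thin filament, went from a median of 555 to 329 CPM (-0.77 ± 0.03, adjusted p = 3.29e-20). Actn2, the alpha-actinin found in all fibre types, went from 236 to 122 CPM (-0.90 ± 0.08, adjusted p = 5.64e-11). Ckmt2, the mitochondrial creatine kinase, fell by 1.25 ± 0.12 on the log2 scale (adjusted p = 1.55e-10). Between these ends lay Ckm, the cytosolic creatine kinase that buffers ATP (-2.83), Tcap, the titin cap (-2.77), Casq1, the calcium store protein of the sarcoplasmic reticulum (-2.65), Ryr1 (-1.82), Acta1 (-1.84), desmin (Des; -1.37) and Myh1 (-1.36).

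**Figure D2:**
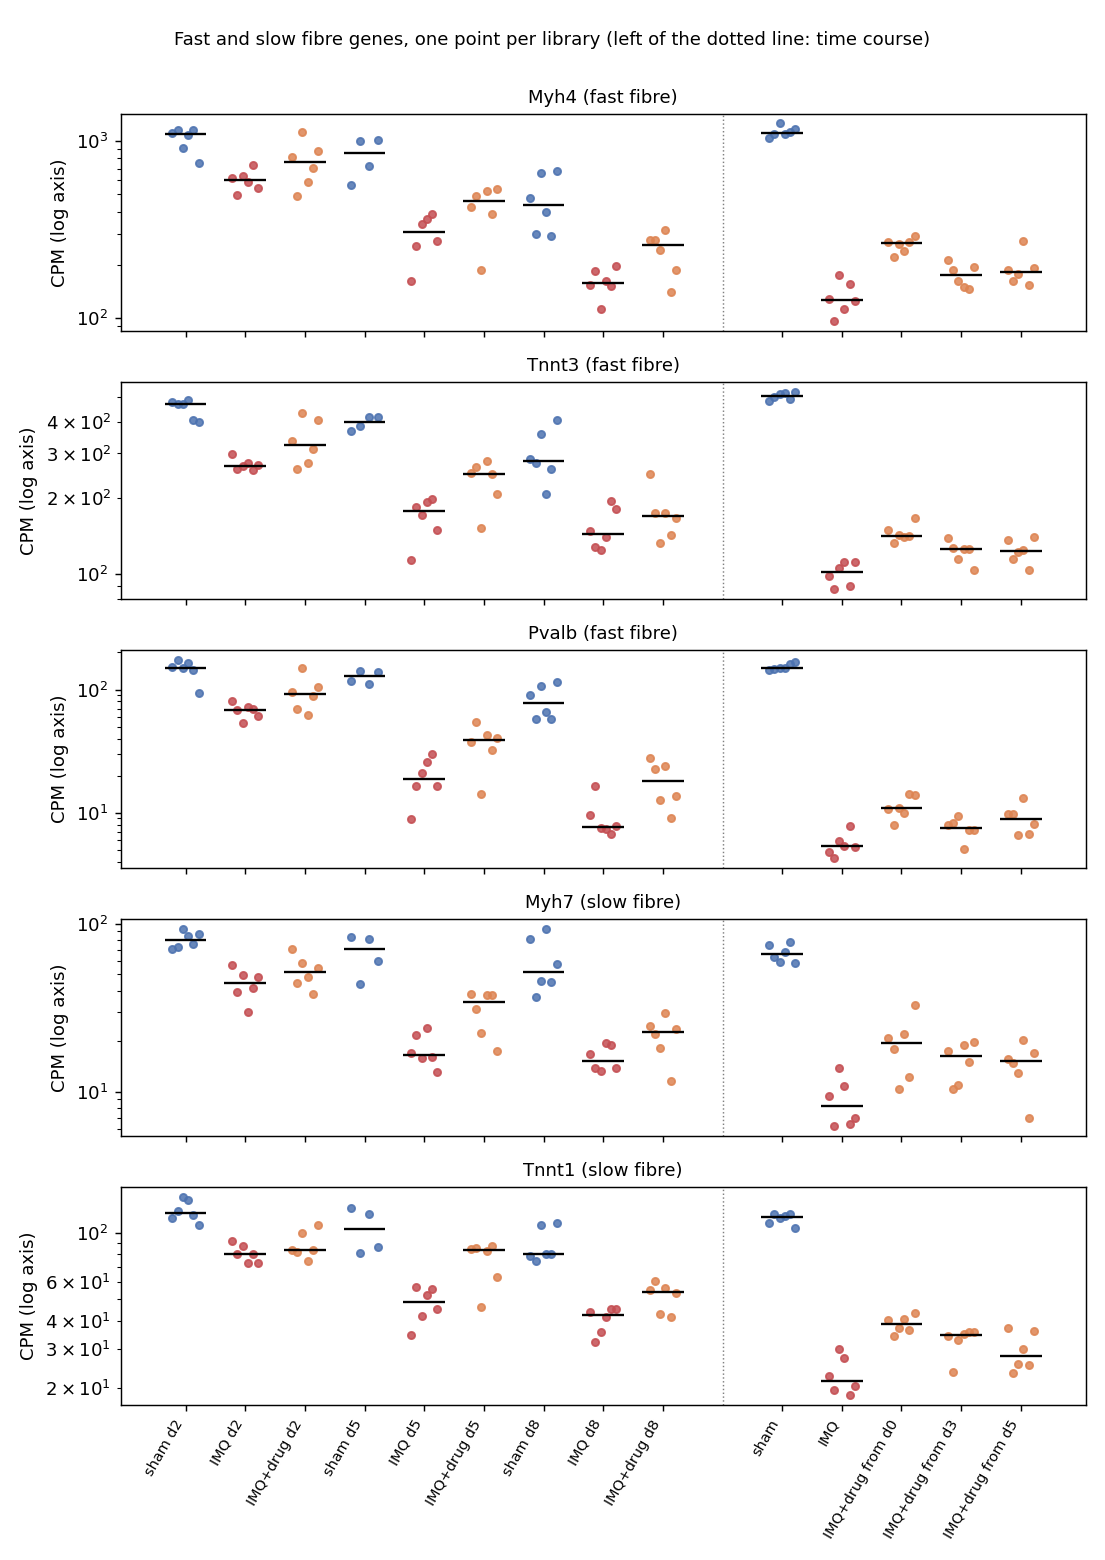
Level of the fast-fibre genes Myh4, Tnnt3 and Pvalb and the slow-fibre genes Myh7 and Tnnt1 (TMM-scaled CPM, log axis) in each library of the 14 groups, with group medians as black lines. Pvalb spans the widest range, from a median of 150 CPM in start-day sham ears to 5.34 CPM in imiquimod ears.

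The fast and slow members were also set against each other within each library, as the mean log2 CPM of Myh4, Tnnt3 and Pvalb minus that of Myh7 and Tnnt1. These differences are descriptions with no test. In the start-day experiment the difference was 2.19 to 2.58 (median 2.294) in sham and 1.23 to 2.13 (median 1.497) in imiquimod ears, so the groups did not overlap. The pairs of like genes moved less there: Myh4 minus Myh7 had medians of 4.06 and 3.84, with overlapping ranges, and Tnnt3 minus Tnnt1 had medians of 2.13 and 2.13. In the time course these pairs did not follow the score: from sham to imiquimod, the medians of Myh4 minus Myh7 went from 3.80 to 3.67 at day 2, from 3.61 to 4.15 at day 5 and from 2.85 to 3.13 at day 8, and those of Tnnt3 minus Tnnt1 from 1.84 to 1.70, 2.01 to 1.78 and 1.80 to 1.90, with overlapping ranges. With 14 fast and 4 slow members in place of 3 and 2, the difference between the group medians was -0.22 in place of -0.80. At days 2, 5 and 8 of the time course it was -0.21, -0.25 and -0.47 with the narrower lists, and with the wider lists the day 8 value turned to 0.12, so no direction is read from it. With the drug from day 0, 3 and 5 the narrower difference had medians of 1.35, 1.23 and 1.57. The ranges were 1.20 to 1.95, 0.84 to 1.89 and 1.27 to 1.84, each overlapping that of the imiquimod libraries. Libraries 28 and 30 of the day 0 start and 22, 23 and 24 of the day 3 start lay below each imiquimod library.

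In the time course the fall was already present after 2 days of imiquimod. At day 2, 37 of 40 members were called lower, against 28.5% of all genes tested, with a median log2 fold change of -0.65 against -0.03 over all genes; 35 members did not overlap between the groups (15.7% of all genes). The summed level was 11270 to 14120 CPM in sham and 7531 to 9169 CPM in imiquimod ears. Mybpc2 had the largest fall (-1.19 ± 0.26, adjusted p = 9.72e-05), then Pvalb (-1.12 ± 0.25, adjusted p = 0.00019) and Actn3 (-0.99 ± 0.25, adjusted p = 0.000772). Actn2 (-0.29), Xirp2, an actin-binding protein of muscle attachment sites (-0.29), and Cacng1, a subunit of the muscle calcium channel (-0.02), were not called.

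At day 5, 37 members were called lower (35.9% of all genes tested), 35 of them without overlap (28% of all genes), and the median was -1.22 against -0.04 over all genes. Pvalb in the 4 sham libraries, numbered 19 to 22, stood at 118, 142, 110 and 139 CPM, and in imiquimod ears at 8.95, 18.8 and 30 CPM (-2.69 ± 0.29, adjusted p = 3.27e-11). Myh4 stood at 565, 1000, 724 and 1010 CPM in those sham libraries and at 162, 308 and 385 CPM under imiquimod (-1.48 ± 0.25, adjusted p = 1.8e-06). Myh7 stood at 82.9, 43.6, 81.2 and 60.1 CPM in sham and at 13.1, 16.6 and 23.8 CPM under imiquimod (-1.89 ± 0.23, adjusted p = 1.35e-09). All 3 genes separated the groups fully. Actn3 fell by 2.52 ± 0.29 and Mybpc2 by 1.92 ± 0.28 on the log2 scale. Tnnt3 stood at 369, 384, 418 and 419 CPM in sham and at 114, 178 and 199 CPM under imiquimod (-1.24). Tnnt1 stood at 129, 81.3, 121 and 86.5 CPM in sham and at 34.6, 48.7 and 56.8 CPM under imiquimod (-1.13). Without libraries 25 and 33 of day 5, a choice made after seeing the data, 36 members were called lower with a median of -1.14. Actn2 (0.18), Cacng1 (-0.22) and Ckmt2 (-0.36) were not called.

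At day 8, 35 members were called lower (33.6% of all genes tested) with a median of -0.88 against -0.01, and 24 separated the groups (22.5% of all genes). Pvalb was at 57.3, 78.4 and 116 CPM in sham and 6.7, 7.68 and 16.6 CPM in imiquimod ears (-3.17 ± 0.30, adjusted p = 7.11e-13). Actn3 had a similar fall (-3.08 ± 0.30, adjusted p = 2.26e-12), and Mybpc2 fell by 1.93 ± 0.28. Myh4 went from 290, 438 and 677 to 112, 158 and 196 CPM (-1.54 ± 0.24, adjusted p = 1.97e-07). Myh7 went from 36.8, 51.7 and 93.6 to 13.3, 15.3 and 19.5 CPM (-1.91 ± 0.22, adjusted p = 3.64e-10). Both myosins separated the groups, as did Tnnt3 (-0.97) and Tnnt1 (-1.13). Myh1 (-0.06), Tpm2 (0.07), Actn2 (0.12), Ckmt2 (0.12) and Cacng1 (-0.27) were not called.

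**Figure D3:**
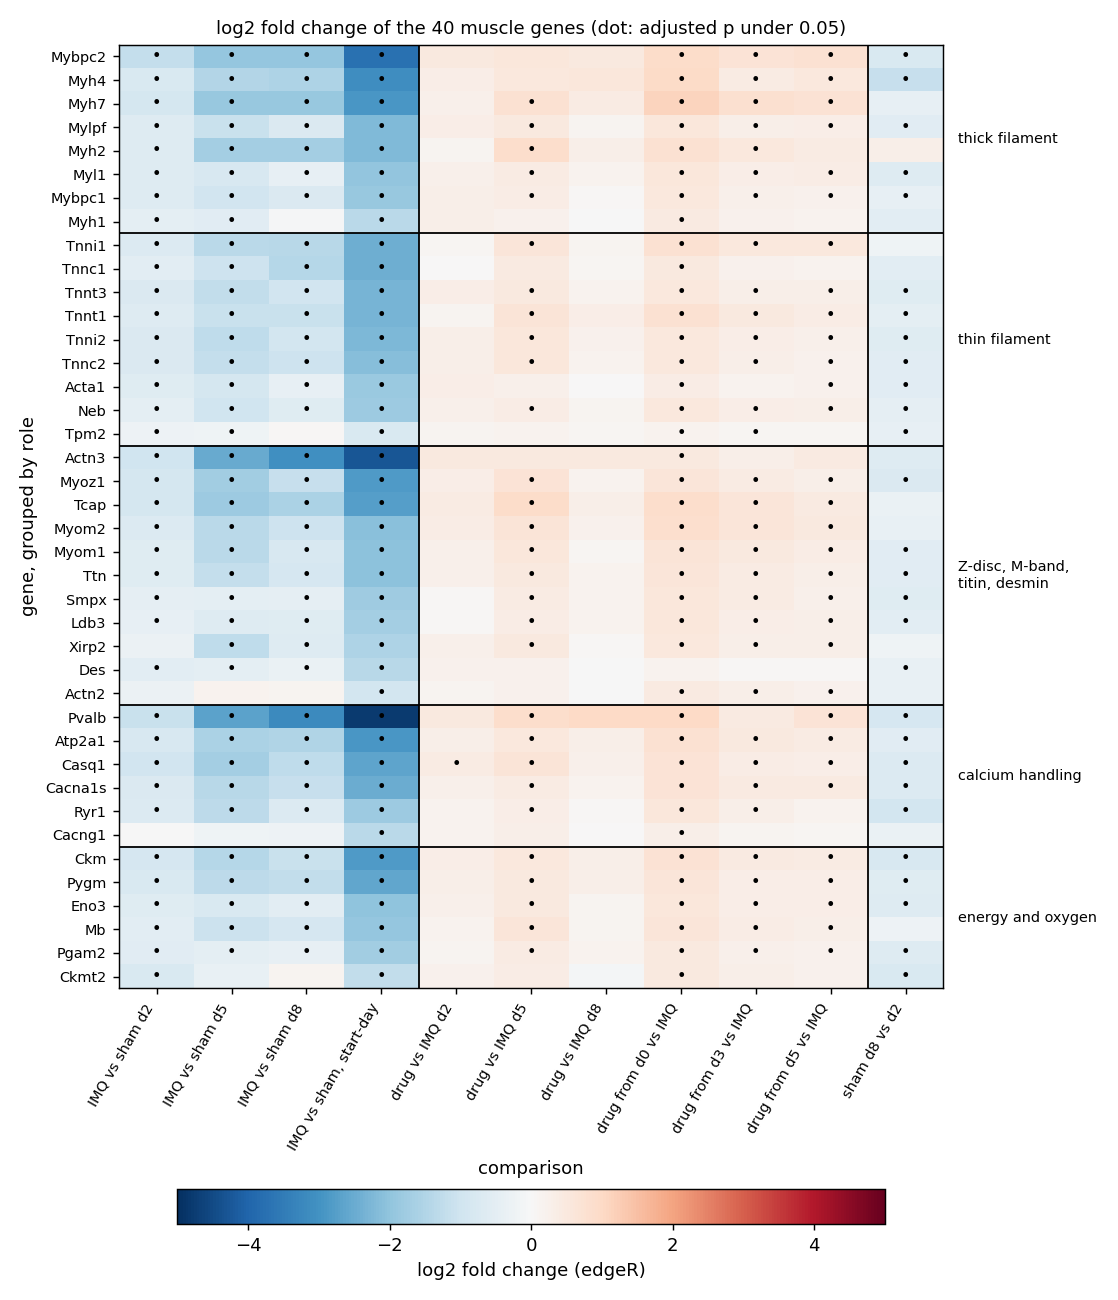
Heat map of log2 fold changes of the 40 members (rows, grouped by role) in 11 comparisons (columns), with colour from blue (lower) to red (higher) and a dot where edgeR's adjusted p was under 0.05. The imiquimod columns are blue for nearly all members, deepest for Pvalb, Actn3 and Mybpc2 in the start-day experiment.

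Each day's sham ears served as its reference, and they had less muscle RNA at day 8 than at day 2. The size of the imiquimod effect was tested for a difference among days 2, 5 and 8. It differed for 17 of 40 members, against 33.4% of all genes tested. Without imiquimod library 25 it differed for 13, among 5922 genes in all, and Myoz1, Casq1, Cacna1s and Mb lost the call. Both counts lie near the share over all genes and are not read as particular to the members. Among the 17 were Pvalb (edgeR adjusted p = 7.85e-05, with log2 fold changes of -1.12, -2.69 and -3.17 at days 2, 5 and 8) and Actn3 (adjusted p = 8.02e-05). Myh2 was another (adjusted p = 9.06e-05, with -0.65, -1.70 and -1.71). Each of these had the smallest fall at day 2. Ckmt2 (adjusted p = 0.00798) went the other way, from -0.75 at day 2 to 0.12 at day 8. Its sham libraries stood at 55.2 to 69.3 CPM at day 2 and at 28.4 to 51.4 CPM at day 8. Its imiquimod libraries stood at 30.3 to 43.1 and 27.8 to 51.7 CPM. The part of the sham difference in these results was not tested. Xirp2 (adjusted p = 0.000947) had its largest fall at day 5 (-0.29, -1.28 and -0.66). Of the fibre type members, Myh7 passed the test (adjusted p = 0.00704), and Myh4 (0.105), Tnnt3 (0.18) and Tnnt1 (0.0668) did not.

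The reference itself moved in the time course: at day 8, sham ears had less muscle RNA than sham ears of day 2. The summed level was 11270 to 14120 CPM (median 12960) at day 2, 10300 to 12760 at day 5 and 6476 to 11860 (median 7973) at day 8. From day 2 to day 8, 28 members were called lower, against 3.37% of all genes tested, with a median of -0.57 against 0.01, and 5 separated the groups (1.78% of all genes). Myh4 fell most, from 749, 1100 and 1160 CPM to 290, 438 and 677 CPM (-1.14 ± 0.23, adjusted p = 0.00165), without overlap. Ryr1 followed, from a median of 291 to 141 CPM (-0.91 ± 0.12, adjusted p = 2.29e-06), also without overlap. Pvalb came next (-0.83 ± 0.25, adjusted p = 0.0348), with overlap, and its call was lost in 8 of 12 fits with 1 library left out.

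Fast Tnnt3 (-0.59, adjusted p = 0.01) and slow Tnnt1 (-0.51, adjusted p = 0.0164) both fell between sham ears of day 2 and day 8. Slow Myh7 was not called (-0.42, adjusted p = 0.245), nor were Xirp2 (-0.20), Tnni1, the slow troponin I (-0.22), or myoglobin (Mb; -0.27). Of 40 estimates 39 were below 0, and the exception, named after its value was seen, was Myh2 (0.28, adjusted p = 0.305). Library 42 of day 8 was the highest of its group at 11860 CPM, followed by library 39 at 10370 CPM. Without sham library 38 of day 8 the count of called members was 19. Between day 2 and day 5 no member was called in sham ears by edgeR or DESeq2 (0.213% of all genes tested), and 1 had an unadjusted p under 0.05. The largest estimates there were those of Tnnc1, the slow troponin C (-0.60, adjusted p = 0.272), Tnni1 (-0.32) and Myh4 (-0.32).

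The sham difference was also called in many muscle genes outside the set and in few cartilage, adipocyte, smooth muscle and Schwann cell genes. Of genes outside the set, 21 of 32 tested excitation and calcium genes, 17 of 35 sarcomere genes and 13 of 23 muscle metabolism genes were called lower from day 2 to day 8 in sham ears, and none was called higher. In the cartilage (14 genes), adipocyte (12) and smooth muscle (14) lists none was called in either direction by edgeR, with medians of -0.03, -0.10 and -0.09. In the same order 0, 1 and 2 genes had an unadjusted p under 0.05. Of 12 Schwann cell genes 1 was called higher (0.15). An unadjusted edgeR p under 0.05 was also found for 5 of 12 keratinocyte, 2 of 12 fibroblast and 1 of 12 leukocyte genes. Muscle examples were the sodium channel Scn4a (-0.89), the phosphorylase kinase subunit Phkg1 (-0.96), the muscle AMP deaminase Ampd1 (-0.87) and cardiac alpha-actin, Actc1 (-1.64), which is also expressed in immature skeletal muscle.

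The imiquimod effect at day 8 was smaller in the time course than in the start-day experiment. In a joint fit of both experiments, each with its own sham group, the difference between the effects passed the test for 39 of 40 members (21.4% of all genes tested, and 11.2% in the direction of the members). All 39 had the smaller fall in the time course, with a median difference of 1.19 on the log2 scale. It was largest for Mybpc2 (1.75 ± 0.36, adjusted p = 0.000123), Ckm (1.66 ± 0.20, adjusted p = 7.36e-10) and Myoz1, a Z-disc protein of fast fibres (1.63 ± 0.24, adjusted p = 1.01e-07). Myh2 was not called (0.45 ± 0.22, adjusted p = 0.142), and the smallest called were Tpm2 (0.79) and Xirp2 (0.84). The sham libraries differ beside it: the day 8 sham libraries of the time course summed to 6476 to 11860 CPM and those of the start-day experiment to 14130 to 14630 CPM. The imiquimod libraries summed to 4246 to 6404 and 3179 to 4097 CPM. The part of the sham difference in this result was not tested.

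With the drug, the muscle genes of imiquimod ears were higher in the start-day experiment. The 3 drug groups were compared with the same imiquimod libraries, and those libraries also enter the comparison with sham, so the values below are given side by side. With the drug from day 0, 39 of 40 members were called higher, against 18.2% of all genes tested, with a median log2 fold change of 0.56 against 0.01, and 32 separated the groups (8.22% of all genes). With the drug from day 3, 32 were called higher (18% of all genes), with a median of 0.34 and 10 without overlap (8.11%). With the drug from day 5, 31 were called higher (15% of all genes), with a median of 0.31 and 3 without overlap (5.32%). No member was called lower in any of them. For the day 5 start the count rested partly on the libraries: it was 20 without drug library 13 and 20 when only the compared groups were fitted.

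The levels stayed far below sham. Summed levels were 4907 to 5830 CPM when drinking of the drug began on day 0, 4027 to 5026 CPM for a day 3 start and 3766 to 4829 CPM for a day 5 start, against 3179 to 4097 CPM under imiquimod and 14130 to 14630 CPM in sham. Pvalb stood at 7.96, 10.9 and 14.2 CPM with the drug from day 0, above the imiquimod libraries throughout (1.01 ± 0.17, adjusted p = 3.3e-05), against a sham median of 150 CPM. From day 3 and day 5 Pvalb had medians of 7.54 and 8.92 CPM (0.43, adjusted p = 0.0524, and 0.69, adjusted p = 0.00293), both overlapping imiquimod.

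The fast and the slow myosin were both called higher with each start. Myh4 stood at 221, 265 and 292 CPM with the drug from day 0 (0.97 ± 0.13, adjusted p = 3.32e-06), above all imiquimod libraries. It stood at 146, 174 and 213 CPM from day 3 (0.41, adjusted p = 0.017) and at 154, 182 and 271 CPM from day 5 (0.53, adjusted p = 0.00351), where the groups overlapped. Myh7 stood at 10.4, 19.5 and 32.9 CPM from day 0 (1.11 ± 0.26, adjusted p = 0.00151), with overlap. From day 3 and day 5 its medians were 16.3 and 15.3 CPM (0.78, adjusted p = 0.0223, and 0.70, adjusted p = 0.0475). With 1 library left out at a time, the Myh7 call was lost in 4 of 12 fits for the day 3 start and in 9 of 12 for the day 5 start, and the Myh4 call in 2 of 12 for the day 3 start. Myh7 thus had the largest estimate of the set from day 0 and from day 3, with the widest standard errors beside it.

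Tnnt3 rose from an imiquimod median of 102 CPM to 142 CPM for the day 0 start (0.53, adjusted p = 1.93e-06), to 126 CPM for the day 3 start (0.28, adjusted p = 0.00265) and to 123 CPM for the day 5 start (0.29, adjusted p = 0.00283). Tnnt1 rose from a median of 21.4 CPM to 38.9 (0.74, adjusted p = 2.69e-05), 34.5 (0.51, adjusted p = 0.00183) and 27.7 CPM (0.35, adjusted p = 0.0312) in the same order, and its call for the day 5 start was lost in 7 of 12 fits with 1 library left out. Both separated the groups for the day 0 start alone. Mybpc2 had estimates of 0.92, 0.69 and 0.76, Myom2 of the M-band 0.83, 0.62 and 0.48, and Tcap 0.87, 0.59 and 0.45, all called. At the low end, Des was called in none (0.18, adjusted p = 0.0526; 0.07; 0.06), and Tpm2 (0.17, 0.10 and 0.08) and Cacng1 (0.30, 0.12 and 0.08) had small estimates.

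Starting the drug on day 5 was compared directly with starting it on day 0. All 40 estimates were below 0 (median -0.28 against 0.00 over all genes), but none passed edgeR's adjusted threshold, which 0.0217% of all genes tested did pass. An unadjusted edgeR p under 0.05 was found for 33 members. The share of all genes with such a p is not given here, so this count is not read as a result about the members. DESeq2 called 18 members, and 196 of 13778 genes in all. The largest were Myh4 (-0.44 ± 0.13, adjusted p = 0.168), Tcap (-0.42 ± 0.13, adjusted p = 0.185) and Myh7 (-0.41 ± 0.25, adjusted p = 0.545), and the smallest Actn3 (-0.06), Tpm2 (-0.09) and Des (-0.12). For 5 members (0.288% of all genes) each library of the day 5 start lay below each library of the day 0 start: Ryr1, Ckm, Atp2a1, Cacna1s and Ttn, named after their values were seen. Ryr1 had medians of 82.2 and 106 CPM (-0.38 ± 0.08, adjusted p = 0.0725). Without library 13 of the day 5 start, 18 members were called, among 363 genes in all.

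In the time course the drug comparison gave different counts by day. At day 2, 1 member was called higher, against 6.9% of all genes tested: Casq1, at 66.2, 94.4 and 121 CPM with the drug and 61, 69.4 and 81.3 CPM without (0.41 ± 0.15, adjusted p = 0.0478). The groups overlapped, and the call was lost in 8 of 12 fits that left out 1 library. The share over all genes was unstable as well: 3100 genes were called in either direction, but 0 with only the compared groups and 7 without imiquimod libraries 9 and 11, so the members' count is not read against it. The member median was 0.26 against 0.01 over all genes, no member separated the groups (0.964% of all genes), and Mybpc2 (0.50), Pvalb (0.49) and Actn3 (0.49) had the largest estimates without passing the test.

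At day 5, 29 members were called higher, against 18.3% of all genes tested, with a median of 0.49 against 0.02. Only Mb and Xirp2 separated the groups (2 members; 5.07% of all genes). Tcap had the largest estimate, from 41.1, 66.1 and 81.4 CPM under imiquimod to 78.4, 127 and 157 CPM with the drug (0.92 ± 0.17, adjusted p = 4.21e-05). Pvalb went from a median of 18.8 to 38.9 CPM (0.89 ± 0.27, adjusted p = 0.00802) and Myh2 from 85.5 to 157 CPM (0.86 ± 0.15, adjusted p = 2.14e-05). Slow Myh7 (0.77, adjusted p = 0.00536) and Tnnt1 (0.64, adjusted p = 0.000306) and fast Tnnt3 (0.47, adjusted p = 0.012) were called, and fast Myh4 was not (0.52, adjusted p = 0.0769). The smallest estimates were those of Tpm2 (0.18), Actn2 (0.20) and Des (0.22). The count was 29 (median 0.50) without libraries 25 and 33, 21 without imiquimod library 25 alone and 38 without drug library 33 alone.

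At day 8, no member was called by edgeR (1.22% of all genes tested were called higher), 3 had an unadjusted p under 0.05, and DESeq2 called 1. The median was 0.18 against 0.00 over all genes, and no member separated the groups (1.04% of all genes). Pvalb had the largest estimate, from 6.7, 7.68 and 16.6 CPM to 9.06, 18.1 and 27.8 CPM (0.99 ± 0.30, adjusted p = 0.0856), then Myh4 (0.58 ± 0.23, adjusted p = 0.218) and Actn3 (0.48). Myh1 (-0.02), Des (-0.02) and Cacng1 (0.02) had the smallest. Tested across days 2, 5 and 8, the drug effect differed for 1 member, Myh2 (adjusted p = 0.0498; estimates 0.14, 0.86 and 0.30), against 7.99% of all genes tested. That call was lost in 25 of 36 fits with 1 library left out.

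Muscle genes outside the set moved with it in the start-day experiment. Of 32 tested genes of excitation and calcium handling, 32 fell under imiquimod (median -1.76), among them the sarcoplasmic reticulum channel Tmem38a (-1.99), the calcium channel subunit Cacnb1 (-1.74) and the dystrophin-complex protein Sgca (-2.05). Of 35 sarcomere genes 32 fell (median -1.80), among them Tpm1 (-1.89), Lmod2 (-2.49), Pdlim3 (-2.19) and Mypn (-2.06), and 1 rose, Tpm3 (0.80), a tropomyosin that many non-muscle cells also make. Of 23 muscle metabolism genes 19 fell (median -1.95), among them Phkg1 (-3.00), Ak1 (-1.96) and Gpd1 (-2.23), and 2 rose, the widely expressed glycolytic enzyme Pgk1 (1.82) and Idh3a. Tpm3 and Idh3a are named after their values were seen.

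In the time course some lists of other ear tissues moved beside the muscle genes and others did not. At day 2, 13 of 14 cartilage genes fell under imiquimod (median -1.36, against -0.65 for the muscle members), as did 11 of 12 Schwann cell genes (-0.86) and 11 of 12 adipocyte genes (-0.61). At day 5 the same lists had 13, 12 and 12 genes lower (-1.60, -1.41 and -1.56, against -1.22 for the members), and at day 8 12, 12 and 12 (-1.42, -1.73 and -1.50, against -0.88). Of 12 fibroblast genes 7, 5 and 5 were called lower at days 2, 5 and 8, and 0, 5 and 6 higher (medians -0.26, 0.05 and 0.12). Of 14 smooth muscle genes 6, 5 and 4 were called lower and 1, 4 and 4 higher (medians -0.28, -0.09 and 0.03). Of all genes tested, 28.5%, 35.9% and 33.6% were called lower. At days 5 and 8 the fibroblast and smooth muscle counts of lower genes lie near that share. Of 12 keratinocyte genes 11, 9 and 11 were called higher at days 2, 5 and 8, and 0, 3 and 1 lower. Their summed levels at day 2 were 22400 to 25800 CPM in sham and 40800 to 48200 CPM in imiquimod ears. At day 8 they were 24200 to 26900 and 67000 to 80000 CPM. With the drug at day 5, 12 adipocyte (0.87), 11 Schwann cell (0.54) and 9 cartilage genes (0.50) rose, beside a median of 0.49 for the muscle members. Of all genes tested, 18.3% were called higher. Of 14 smooth muscle genes 7 were called higher and 0 lower. Of 12 leukocyte genes 11 fell and 1 rose (-1.08), of 12 fibroblast genes 9 fell and 2 rose (-0.39), and of 12 keratinocyte genes 4 fell and 4 rose. The part of these lists in the muscle result was not tested.

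Lists of other ear tissues moved beside the muscle genes in the start-day experiment as well. Under imiquimod, 12 of 14 cartilage genes fell (median -1.94), as did 12 of 12 Schwann cell genes (-1.92) and 12 of 12 adipocyte genes (-2.15), while 9 of 13 smooth muscle genes fell and 3 rose (-0.50). Fibroblast genes fell in 9 of 12 (-0.96). Keratinocyte genes rose in 12 of 12 (median 2.36), and their summed level went from 17700 to 22000 CPM in sham to 69900 to 83600 CPM in imiquimod ears. Leukocyte genes rose in 11 of 12 and fell in 1, and their summed level went from 321 to 389 CPM in sham to 8360 to 10700 CPM in imiquimod ears and 2950 to 5580 CPM with the drug from day 0. With the drug from day 0, 10 cartilage genes (0.44), 10 Schwann cell genes (0.36) and 10 adipocyte genes (0.54) rose as well, beside 18.2% of all genes tested. Of 12 fibroblast genes 3 fell and 2 rose there, and of 12 keratinocyte genes 5 fell and 5 rose. CPM values are shares of a library, and scaling by library size alone moved the median log2 fold change of all genes by -0.20 at day 5, -0.17 at day 8 and -0.22 in the start-day experiment. Under that scaling the estimates of Actn2 at day 5 and of Actn2, Tpm2 and Ckmt2 at day 8 changed sign, none of them called.

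**Figure D4:**
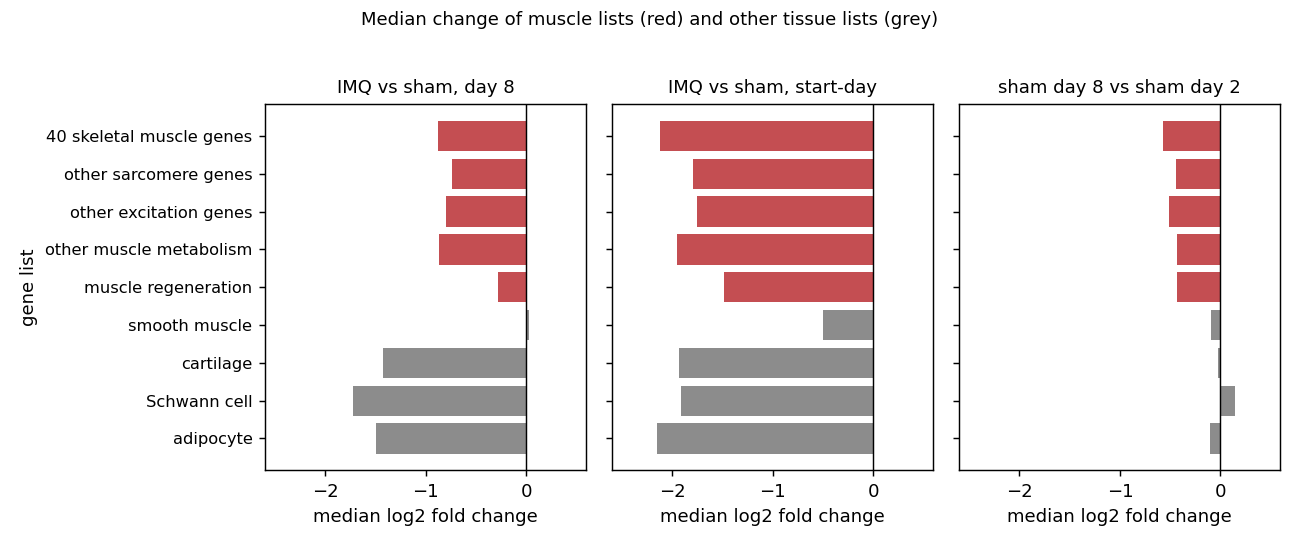
Median log2 fold change (bars, from 0) of 9 gene lists in 3 comparisons: imiquimod versus sham at day 8, imiquimod versus sham in the start-day experiment, and sham of day 8 versus sham of day 2; red bars are muscle lists and grey bars other lists. In the third comparison the skeletal muscle members have a median of -0.57 and cartilage, adipocyte and smooth muscle lists lie between -0.10 and -0.03.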

How the data were processed

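Poly(A) RNA libraries from ear punches were sequenced, and the authors deposited 2 tables of estimated counts per gene from salmon, per the file names, on GRCm39, per the submitters' processing notes; no salmon version or annotation is given in the sources used here. The deposited estimated counts were rounded, filtered with filterByExpr and scaled by TMM, and each experiment was fitted over all its groups with edgeR 4.0.16 (R 4.3.3) by the quasi-likelihood test, with Benjamini-Hochberg adjustment over all genes tested (18780 in the time course, 18434 in the start-day experiment, 19455 in the joint fit). Log2 CPM used a prior count of 2. Groups came from the labels, and all 82 libraries entered. No interval is given for single values; the number of libraries and their spread set the precision. Alternatives were DESeq2 1.42.0, RLE or library-size scaling, no filter, only the compared groups, and each library left out; the procedure was tested on simulated data. Exon lengths (exon union, GENCODE vM21, GRCm38) gave CPM per kb for all 40 members by gene identifier. Motifs were searched on both strands with Python 3.11.15 in the 250 bases before RefSeq starts.

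The members and gene lists were chosen with earlier results of these data known. Named genes were the 5 fibre type members, the 3 members with the largest and the 3 with the smallest absolute change in each comparison, up to 4 called genes with the smallest adjusted p of each other list, and members as examples of their role.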

Additional observations from a re-analysis of the deposited data

Results flagged for a closer look

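In groups of 4 or 6 libraries, 98 sets of values (the 5 fibre type members and 2 scores per group) were screened. The screen looked for a highest or lowest library far from the rest, and 6 were found, where chance gives about 1 in 20. In sham ears of day 2, library 6 had 94.6 CPM of Pvalb, below the rest. In imiquimod ears of day 8, library 45 had 16.6 CPM of Pvalb, above the rest. In imiquimod ears with the drug at day 8, library 51 was high both for the summed members (7772 CPM) and for Tnnt3 (249 CPM). With the drug from day 3, library 20 had 23.6 CPM of Tnnt1, below the rest, and with the drug from day 5, library 16 had 271 CPM of Myh4, above the rest.

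By tests of the difference itself, the imiquimod effect differed among days 2, 5 and 8 for 17 of 40 members, against 33.4% of all genes tested. That count lies near the share over all genes, and it was 13 without imiquimod library 25 of day 5 and 10 without the filter on low counts. The drug effect among those days differed for 1 member, against 7.99% of all genes. Between day 8 of the time course and the start-day experiment the imiquimod effect differed for 39 members, against 21.4% of all genes.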

How the results depend on the processing

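No paired analysis was possible because library numbers never repeat between groups of an experiment. Where counts of called members moved by over 1.5 times, the values were as follows, and the cause was not tested. For the drug at day 2 (1 called), DESeq2 called 2, and library-size scaling, RLE scaling, no filter, only the compared groups, and leaving out imiquimod libraries 9 and 11 each gave 0; leaving out single libraries gave 0 to 2. For the drug at day 8 (0 called), DESeq2 called 1, and leaving out single libraries gave 0 to 1, with Pvalb called without drug library 55. For the drug from day 5 (31), only the compared groups gave 20, and single libraries left out gave 20 to 34. For the imiquimod effect among days (17), no filter gave 10 and single libraries left out 13 to 20. For the drug effect among days (1), no filter and RLE scaling gave 0, and single libraries left out 0 to 3. For the day 5 against the day 0 start (0), DESeq2 gave 18, library-size scaling 11, only the compared groups 1, and single libraries left out 0 to 18 (5 without library 18). With wider fibre lists the fast-minus-slow difference between imiquimod and sham was 0.12 at day 8, where the narrower lists gave -0.47, and -0.22 in the start-day experiment, where they gave -0.80. Directions that library-size scaling turned are named with the results above.

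With single libraries left out, the imiquimod counts were 37 to 38 at day 2, 36 to 38 at day 5, 32 to 36 at day 8 and 40 in the start-day experiment; the drug counts were 21 to 38 at day 5, 38 to 40 for the day 0 start and 28 to 35 for the day 3 start; and the sham count of day 8 against day 2 was 19 to 31. The 6 libraries a group limit what smaller differences can be called.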

Other observations

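Genes of muscle development and regeneration mostly fell with the mature muscle genes in imiquimod ears of the start-day experiment. Of 15 tested, 11 fell (median -1.48), beside 39.9% of all genes tested called lower. Among the 11 were the embryonic myosin Myh3 (-2.64), the neural cell adhesion gene Ncam1 (-1.48) and the myogenic factors Myf6 (-1.53) and Myod1 (-1.83). The 2 that rose were Runx1 and Mest, named after their values were seen. Myh3 shares sequence with the adult myosins, so its separate value is uncertain. In the time course, 6, 5 and 5 of 14 tested genes of this list were called lower at days 2, 5 and 8, and 2, 2 and 4 higher. Of all genes tested, 28.5%, 35.9% and 33.6% were called lower, so the counts of days 5 and 8 lie near that share.

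Genes linked to muscle atrophy were split in the same comparison, with 5 of 11 lower and 5 higher, beside 39.9% of all genes tested called lower and 14393 of 18434 called in either direction, so the counts lie near the share over all genes. The lower ones included myostatin, Mstn (-3.28), a muscle-derived inhibitor of muscle growth, Foxo1 (-0.86), and the muscle ubiquitin ligases Fbxo32 (-1.59) and Trim63 (-1.79). The higher ones were Foxo3, Fbxo30, Gadd45a, Mt1 and Mt2, none specific to muscle and named after their values were seen.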
